A study of Mus musculus with 8 samples.

Results

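The genes described here are 36 genes of cholesterol synthesis, fatty acid synthesis and their control by the sterol regulatory element binding proteins (SREBPs), out of 49315 gene identifiers counted. They were taken from a fixed list of names and found in the count tables by their mouse symbols; the rule itself uses no measured value. RNA came from whole esophagus of wild-type mice at day 14. The control group (5 libraries) had untreated drinking water, and the SDS group (3 libraries) had water with 0.5% sodium dodecyl sulfate, a household detergent. The labels give no age, sex or strain, and do not say that each library is a separate animal, so p-values measure the spread between these libraries only. Libraries held between 22033866 and 29802362 counted reads. Levels are given as CPM, read counts relative to the library size after TMM scaling, and as TPM where genes are compared with each other, because TPM also divides by gene length. A gene is called changed at a Benjamini-Hochberg adjusted p below 0.05 in edgeR's quasi-likelihood test over all 17179 tested genes.

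Cells build cholesterol from acetyl-CoA through mevalonate, farnesyl diphosphate, squalene and lanosterol. When sterol in the endoplasmic reticulum is low, Scap escorts SREBP-2 to the Golgi, where it is cut and released to switch on the enzymes of this route, while Insig proteins hold the complex back when sterol is plentiful. SREBP-1 acts mainly on fatty acid synthesis, desaturation and elongation. Stratified squamous epithelium uses both routes for its membranes and surface lipids, and adipocytes express the fatty acid enzymes strongly.

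Most sterol enzymes and elongases had small positive fold changes in the SDS group that did not pass the test (17 of 18 and 4 of 5; Dhcr7 and Elovl6 were negative). Without SDS library 3, 11 of 18 and 3 of 5 were positive. Of the 36 members, 35 were tested and 0 were called in either direction, where 1.05% of all tested genes were called (180 genes), 0.623% higher and 0.425% lower. DESeq2 called 3 members higher (Pmvk, Elovl5 and Scd2), where it called 5% of all tested genes higher, and limma-voom called 0 members. Elovl3, an elongase known from skin and brown fat, was too low to test, with at most 6 reads in any library. At an unadjusted edgeR p below 0.05 there were 5 members (Pmvk, Mvd, Nsdhl, Scd2 and Elovl5), each higher in the SDS group; 9.98% of all tested genes met that limit on the higher side and 8.53% on the lower. The fold change was positive for 26 members and negative for 9, where 49.3% of all tested genes were positive. The members' median log2 fold change was 0.24, against -0.005 over all tested genes. Many members varied together between libraries, so these counts are not independent of each other. For the 18 enzymes of sterol synthesis the median was 0.35 and 17 were positive. For the 12 tested fatty acid genes the median was -0.04 and 6 were positive.

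SDS library 3 stood apart from the other SDS libraries, and control 4 stood apart from the other controls. Krt6a, a keratin of stressed squamous epithelium, measured 3567 CPM in SDS library 1 and 2819 CPM in SDS library 2. In SDS library 3 it measured 51.1 CPM, inside the control range of 43.6 to 108 CPM. Adipocyte markers were at very different levels in the controls: their 11 genes summed to 5869 CPM in control 4 and to 116 CPM in control 3. Skeletal muscle markers (12 genes) summed to 32720 to 44690 CPM in controls and to 15390 to 28360 CPM in SDS libraries, and 0 of the 12 were called. All 12 had negative fold changes, and 7 (58.3%) had every SDS library below every control, against 6.89% of all tested genes. Fold changes are therefore given for all 8 libraries and without SDS library 3. Without it 6.92% of 17662 tested genes were called, only 11 of the 18 sterol enzymes were positive and their median log2 fold change was 0.07. In whole tissue, fewer cells of a type and less RNA per cell cannot be told apart.

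**Figure D1:**
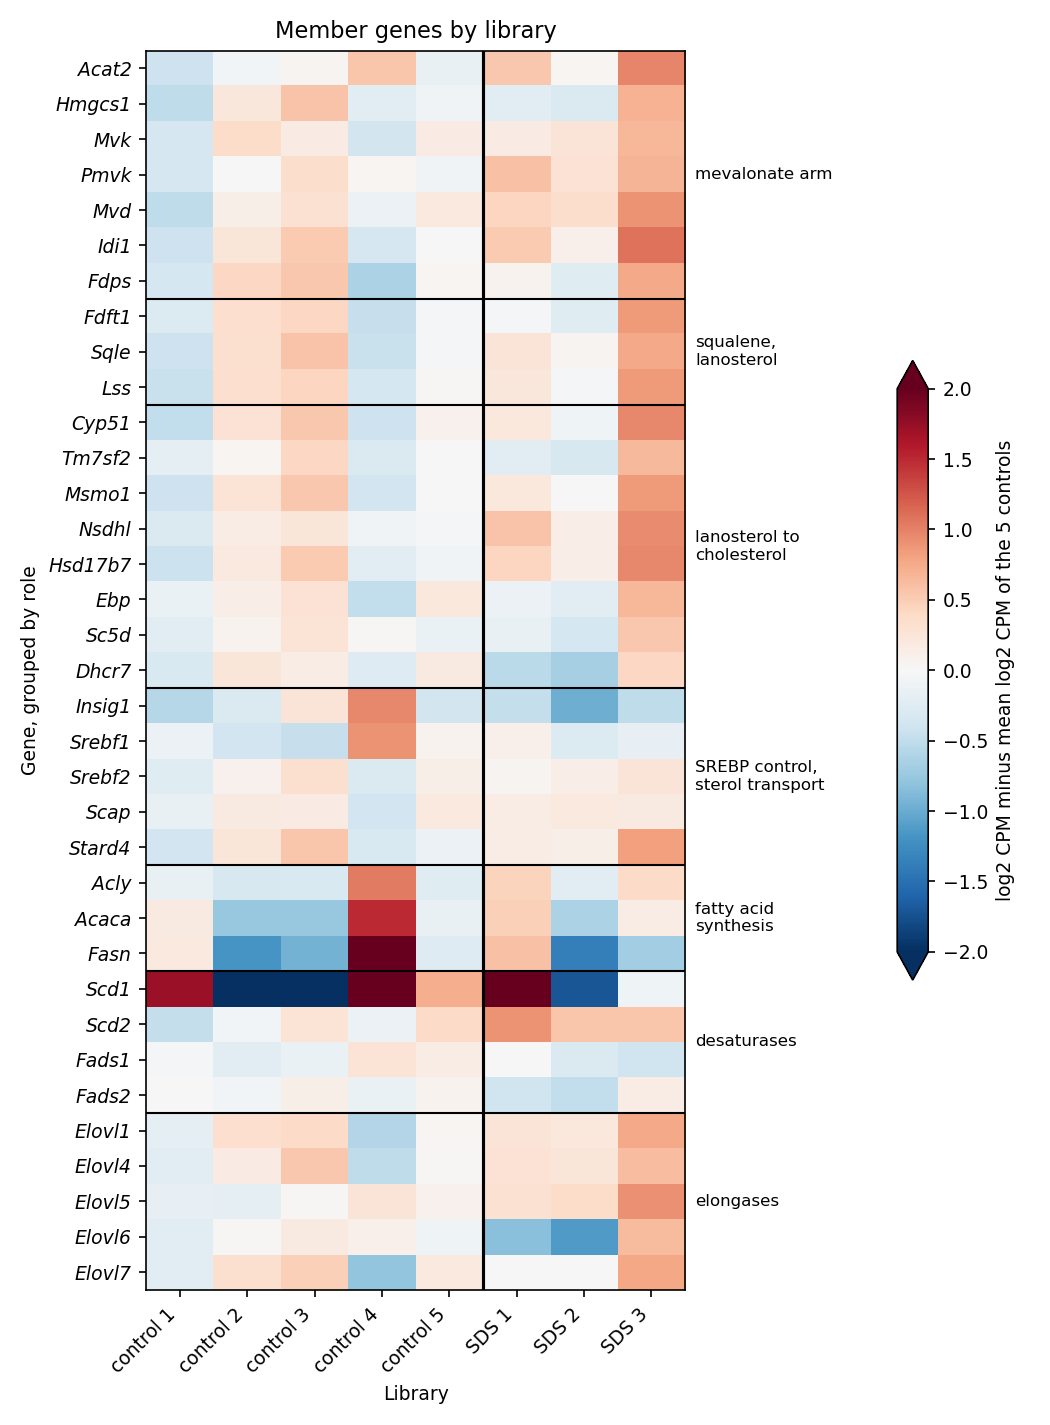
Colour shows the log2 CPM of each of the 35 tested genes (rows, grouped by role) in each library (columns) minus the mean log2 CPM of the 5 controls; colours stop at 2 in either direction. The column of SDS library 3 is red through all 18 sterol enzymes, while control 4 has the reddest cells of Fasn, Acaca and Acly.

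The sterol enzymes varied together from library to library. SDS library 3 had the highest CPM of all 8 libraries for 18 of the 18 enzymes, a position it held for 21.2% of all tested genes. Among the controls, libraries 2 and 3 were both above libraries 1 and 4 for 16 of the 18, against 30.5% of all tested genes. The ratio of SDS library 3 to the mean of the other SDS libraries ran from 1.18 for Pmvk to 2.01 for Dhcr7, with a median of 1.68. The mean log2 level of the 18 enzymes, relative to the control mean, was -0.36, 0.21, 0.38, -0.24 and 0.02 in controls 1 to 5. In SDS libraries 1 to 3 it was 0.16, -0.06 and 0.79. SDS libraries 1 and 2 thus lay inside the control range and SDS library 3 above it.

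Suprabasal epithelium markers, taken without Krt6a (Krt13, Krt4, Sprr3, Rptn, Tgm3, Lor, Cnfn, Spink5 and Ivl, with Crnn untested at under 1 CPM), differed between the same libraries. Their mean log2 level was -0.17, 0.21, 0.49, -0.56 and 0.03 in controls 1 to 5, and -0.34, -0.48 and 0.46 in SDS libraries 1 to 3. Controls 2 and 3 were above controls 1 and 4, as for the enzymes. In SDS libraries 1 and 2 the sterol enzymes lay higher than these markers, but lower than the list with Krt6a in it (0.27 and 0.12). Basal epithelium markers (9 genes) had mean log2 levels of -0.18, 0.20, 0.31, -0.60 and 0.27 in controls and 0.31, 0.20 and 0.41 in SDS libraries. Krt14 was the 1 called, higher, where 0.623% of all tested genes were called higher. Its adjusted p was 0.0493 in edgeR's quasi-likelihood test, and it was called in 9 of 22 fits. The 9 basal markers summed to 3437 to 7319 CPM in controls and 8209 to 10660 CPM in SDS libraries, none of them at 0. Krt14 measured 325 to 822 CPM in controls and 5036, 4008 and 1094 CPM in SDS libraries, so these sums lean on it. Fold changes were positive for 5 of the 9 and negative for 4. The mean log2 level of the basal markers was also highest in SDS library 3. The 10 suprabasal markers, Crnn included and Krt6a left out, summed to 56960 to 167400 CPM in controls and 96400 to 172900 CPM in SDS libraries. The mean of the 9 tested suprabasal markers, without Krt6a, was used as a covariate, an alternative chosen after the data were seen. With it 15 members were called higher, where 6.85% of all genes were called higher. Among them were 11 sterol enzymes and Elovl1, Elovl4 and Elovl7. That marker mean lay below every control but control 4 in SDS libraries 1 and 2, so this covariate is partly tied to the group. No fit with Krt6a in the covariate was run. With the skeletal muscle markers as the covariate, 0 members were called, against 0.0116% of all genes. In that fit 7 of the 18 sterol enzymes were positive, with a median log2 fold change of -0.15. The mean log2 level of the muscle markers was lower in every SDS library (-0.31, -0.92 and -1.28) than in every control (-0.27 to 0.43). This covariate and the group therefore cannot be told apart. The part of these tissues in the members' values was not tested beyond these fits.

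**Figure D2:**
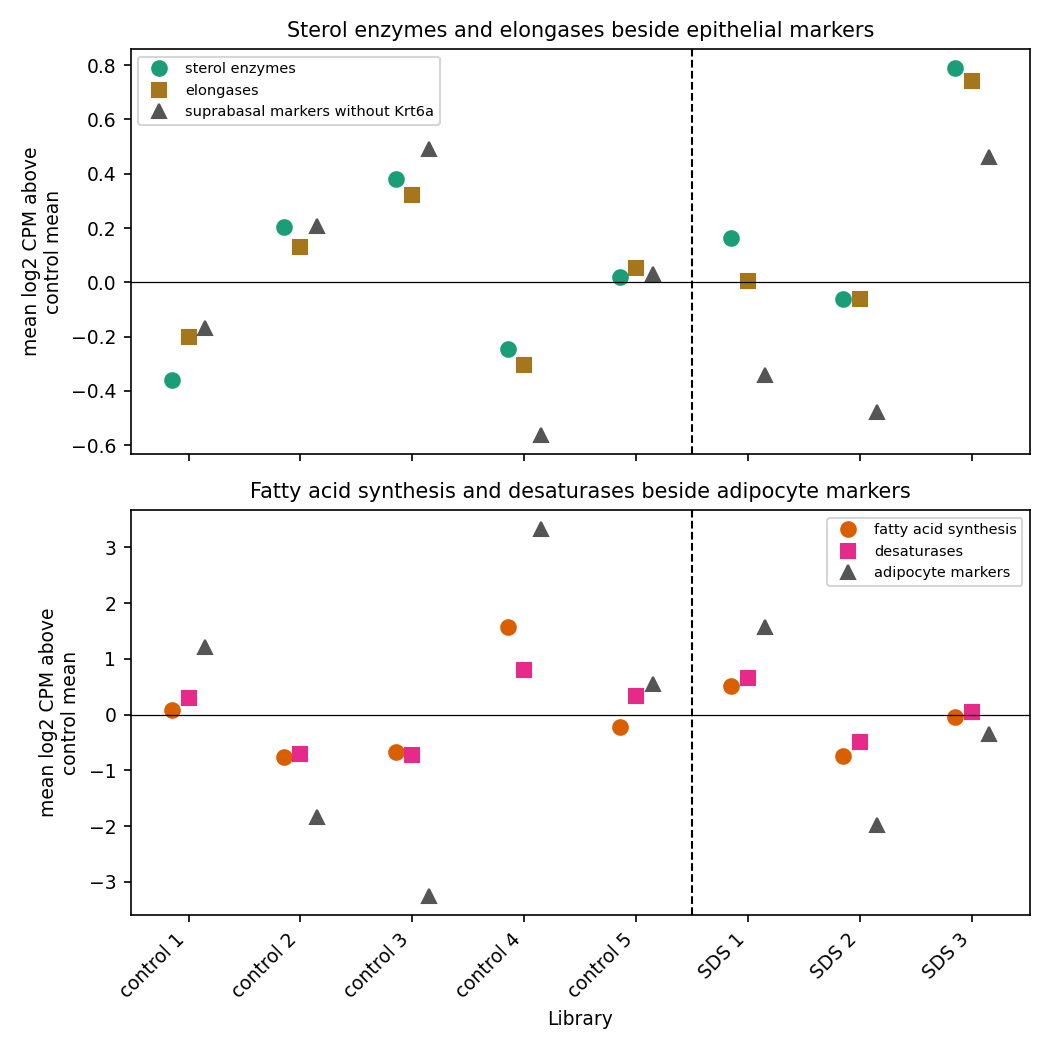
Points give the mean log2 CPM of a gene list in each library above its control mean; the dashed line separates controls from SDS libraries. Sterol enzymes and elongases stand highest in SDS library 3 (0.79 and 0.74), and fatty acid synthesis genes, desaturases and adipocyte markers stand highest in control 4 (1.57, 0.81 and 3.34).

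These genes share known promoter factors. Promoter letters are printed below for Hmgcs1, Mvk, Mvd, Elovl5 and Fasn, which were picked by hand and each hold a match. RefSeq windows (GRCm38.p6, from 250 bases before to 50 after a start) were held for 28 of the 36 members. The letters searched on both strands were CCAAT (the NF-Y box), CACGTG (the E-box), TCACNCCAC (a form of the sterol regulatory element) and a stricter sterol element of 10 bases. CCAAT was found for 22 of the 28 members (78.6%) and for 14 of 15 sterol enzymes (93.3%), against 41.1% of the 27025 genes in the table. CACGTG was found for 7 members (25.0%), against 8.1% of all. TCACNCCAC was found for 1 member, Hmgcs1 (3.6%), against 1.4% of all, and the stricter element for 0 members, against 0.1%. Elovl6, Elovl7, Acaca, Acat2 and Fads2 had windows without any of these matches. Some members had more than 1 start, and a match in any window was counted. Of 35 member windows, 30 had bases after the start that lie in a GENCODE transcript of the gene. The rest were windows of Hmgcs1, Sc5d, Nsdhl, Elovl4 and Srebf1, and matches in them were counted too. A match describes letters and not binding, and windows without a match say only that these letters are not in them.

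The stretches below run 5′ to 3′ along the gene's strand and end at the last base before the RefSeq start (for Elovl5, 2 bases before it), with matches to the searched letters in capitals (CCAAT also appears as ATTGG, its other strand). Hmgcs1 (chr13:119690151-119690350, plus strand) holds the sterol element form TCACCCCAC between CCAAT boxes, Mvk (chr5:114444069-114444268, plus strand) has 5 CCAAT matches, and Mvd (chr8:122443423-122443622, minus strand) has 2. Elovl5 (chr9:77917165-77917363, plus strand) holds an E-box, and Fasn (chr11:120824548-120824747, minus strand) holds 3 CCAAT matches, of which the pair in CCAATTGG overlap. The RefSeq start of Hmgcs1 lies before the gene's first base in the count tables (119690462).
Hmgcs1: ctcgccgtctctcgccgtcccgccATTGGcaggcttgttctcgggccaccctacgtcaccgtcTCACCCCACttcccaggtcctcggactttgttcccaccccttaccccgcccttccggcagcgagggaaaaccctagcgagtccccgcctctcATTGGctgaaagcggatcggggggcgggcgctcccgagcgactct
Mvk: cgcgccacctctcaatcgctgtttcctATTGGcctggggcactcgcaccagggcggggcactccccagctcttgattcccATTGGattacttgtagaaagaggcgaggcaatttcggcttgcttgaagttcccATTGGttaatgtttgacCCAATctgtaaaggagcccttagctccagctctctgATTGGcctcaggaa
Mvd: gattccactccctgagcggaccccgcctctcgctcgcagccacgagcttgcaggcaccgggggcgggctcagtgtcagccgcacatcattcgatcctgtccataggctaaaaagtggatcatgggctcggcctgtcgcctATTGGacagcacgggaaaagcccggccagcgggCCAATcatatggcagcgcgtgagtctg
Elovl5: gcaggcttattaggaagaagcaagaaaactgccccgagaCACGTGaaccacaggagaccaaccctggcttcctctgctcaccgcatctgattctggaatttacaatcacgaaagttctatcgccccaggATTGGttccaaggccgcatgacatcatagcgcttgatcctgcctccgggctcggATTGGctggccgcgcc
Fasn: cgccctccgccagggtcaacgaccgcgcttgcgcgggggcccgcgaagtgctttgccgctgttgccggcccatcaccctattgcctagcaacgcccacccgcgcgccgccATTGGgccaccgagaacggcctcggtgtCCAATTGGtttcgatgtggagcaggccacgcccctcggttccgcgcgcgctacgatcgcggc

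The mevalonate arm makes farnesyl diphosphate and holds 7 members, all with a positive fold change and 0 called; the median log2 fold change was 0.51, and 0.28 without SDS library 3. Pmvk (ENSMUSG00000027952, chromosome 3 from 89454541 to 89469013), phosphomevalonate kinase, had the smallest p of the arm. Its control values were 30.1, 38.2, 48.3, 38.8 and 36.04 CPM, and its SDS values were 56.7, 46.2 and 60.7 CPM. SDS library 2 lay within the control range and the other SDS libraries above it. Pmvk had a log2 fold change of 0.51 ± 0.15 (SE), with an adjusted p of 0.13 in edgeR's quasi-likelihood test. It was 0.43 without SDS library 3, and DESeq2 gave an adjusted p of 0.0435.

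Mvd (chromosome 8 from 122433601 to 122443422), the decarboxylase that makes isopentenyl diphosphate, was the sterol enzyme whose groups did not overlap. It measured 27.2, 42.0, 47.5, 35.8 and 44.2 CPM in controls and 52.1, 49.4 and 72.3 CPM in SDS libraries. The log2 fold change of Mvd was 0.56 ± 0.20 with an adjusted p of 0.18, and 0.37 with an adjusted p of 0.32 without SDS library 3. Over all members, 3 of 35 (Mvd, Scd2 and Elovl5) had every SDS library above every control, 8.57% against 6.49% of all tested genes, and 0 had every SDS library below, against 6.89%.

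Idi1, the isomerase of the next step, measured 29.2 to 56.0 CPM in controls and 56.2, 42.1 and 82.8 CPM in SDS libraries (log2 fold change 0.58 ± 0.27, adjusted p 0.29, and 0.29 without SDS library 3). SDS library 1 was level with the highest control and SDS library 2 was inside the control range. Acat2, the cytosolic thiolase at the head of the route, had a log2 fold change of 0.53 ± 0.25 (0.28 without SDS library 3), with controls from 32.1 to 62.8 CPM. Its highest control was control 4, unlike the rest of the arm. Mvk, mevalonate kinase, had a log2 fold change of 0.35 ± 0.20, and 0.19 without SDS library 3.

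Hmgcs1, which makes HMG-CoA, and Fdps, which makes farnesyl diphosphate, showed the least difference in the arm. Hmgcs1 measured 189, 313, 395, 231 and 254 CPM in controls and 231, 219 and 435 CPM in SDS libraries. SDS libraries 1 and 2 lay near control 4 and SDS library 3 above every control. For Hmgcs1 the log2 fold change was 0.09 ± 0.30, and -0.29 without SDS library 3. Fdps measured 92.1 to 208 CPM in controls and 151, 121 and 243 CPM in SDS libraries (0.19 ± 0.31, and -0.14 without SDS library 3). Per length, Hmgcs1 was the most abundant sterol enzyme in controls, at 207 ± 45.3 TPM (SD, n = 5), ahead of Fdft1 at 139 ± 24.9 TPM.

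The 3 enzymes that make lanosterol from farnesyl diphosphate each had SDS library 3 first and controls 3 and 2 next, and none was called. Their median log2 fold change was 0.34, and 0.07 without SDS library 3. Lss (ENSMUSG00000033105, chromosome 10 from 76531588 to 76557138), lanosterol synthase, measured 62.7, 108, 116, 67.2 and 86.9 CPM in controls and 100, 83.8 and 154 CPM in SDS libraries. SDS libraries 1 and 2 were within the control range. Lss had a log2 fold change of 0.36 ± 0.26 with an adjusted p of 0.52, and 0.07 without SDS library 3. Sqle, squalene epoxidase and a rate-limiting step, measured 91.7 to 184 CPM in controls and 149, 129 and 212 CPM in SDS libraries (0.34 ± 0.27, and 0.11 without SDS library 3). Fdft1, squalene synthase, measured 117 to 214 CPM in controls and 158, 135 and 288 CPM in SDS libraries (0.24 ± 0.29, and -0.16 without SDS library 3). Of the exon bases of Fdft1, 26.8% are shared with Ctsb on the opposite strand, and the strand setting of the counting is not given in the sources used here, so the division of reads between these genes is uncertain.

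From lanosterol to cholesterol, 7 of 8 members were positive, 0 were called, and the median log2 fold change was 0.25, or -0.09 without SDS library 3. Nsdhl (ENSMUSG00000031349, chromosome X from 72918557 to 72958514), a sterol dehydrogenase of C4 demethylation, had the smallest p. It measured 26.8, 36.4, 38.8, 31.5 and 32.3 CPM in controls and 48.8, 36.01 and 63.4 CPM in SDS libraries. SDS library 2 lay among the controls and the other SDS libraries above them. For Nsdhl the log2 fold change was 0.58 ± 0.18 with an adjusted p of 0.15, and 0.36 with an adjusted p of 0.25 without SDS library 3. Hsd17b7, the ketoreductase of the same complex, had a log2 fold change of 0.51 ± 0.25, and 0.26 without SDS library 3. Msmo1, the C4 methyl oxidase, and Cyp51, the lanosterol demethylase, had log2 fold changes of 0.36 ± 0.27 and 0.38 ± 0.30. Without SDS library 3 these were 0.078 and 0.019.

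Ebp, Sc5d and Tm7sf2 differed less. The log2 fold change was 0.14 ± 0.24 for Ebp, the sterol isomerase, 0.06 ± 0.21 for Sc5d, a desaturase, and 0.08 ± 0.25 for Tm7sf2, a sterol reductase. Each of these 3 turned negative without SDS library 3, at -0.19, -0.25 and -0.29. Tm7sf2 shares 15.3% of its exon bases with Vps51 on the same strand, so its reads may be divided between them.

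Dhcr7 (chromosome 7 from 143823145 to 143848410), the reductase that makes cholesterol in the last step, was the sterol enzyme with a negative value. Controls measured 36.6, 53.5, 50.2, 37.9 and 51.4 CPM, and SDS libraries 31.0, 28.7 and 60.2 CPM. SDS libraries 1 and 2 lay below every control and SDS library 3 above every control. The log2 fold change of Dhcr7 was -0.20 ± 0.26 with an adjusted p of 0.73. Without SDS library 3 it was -0.61 ± 0.18, with an adjusted p of 0.087.

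**Figure D3:**
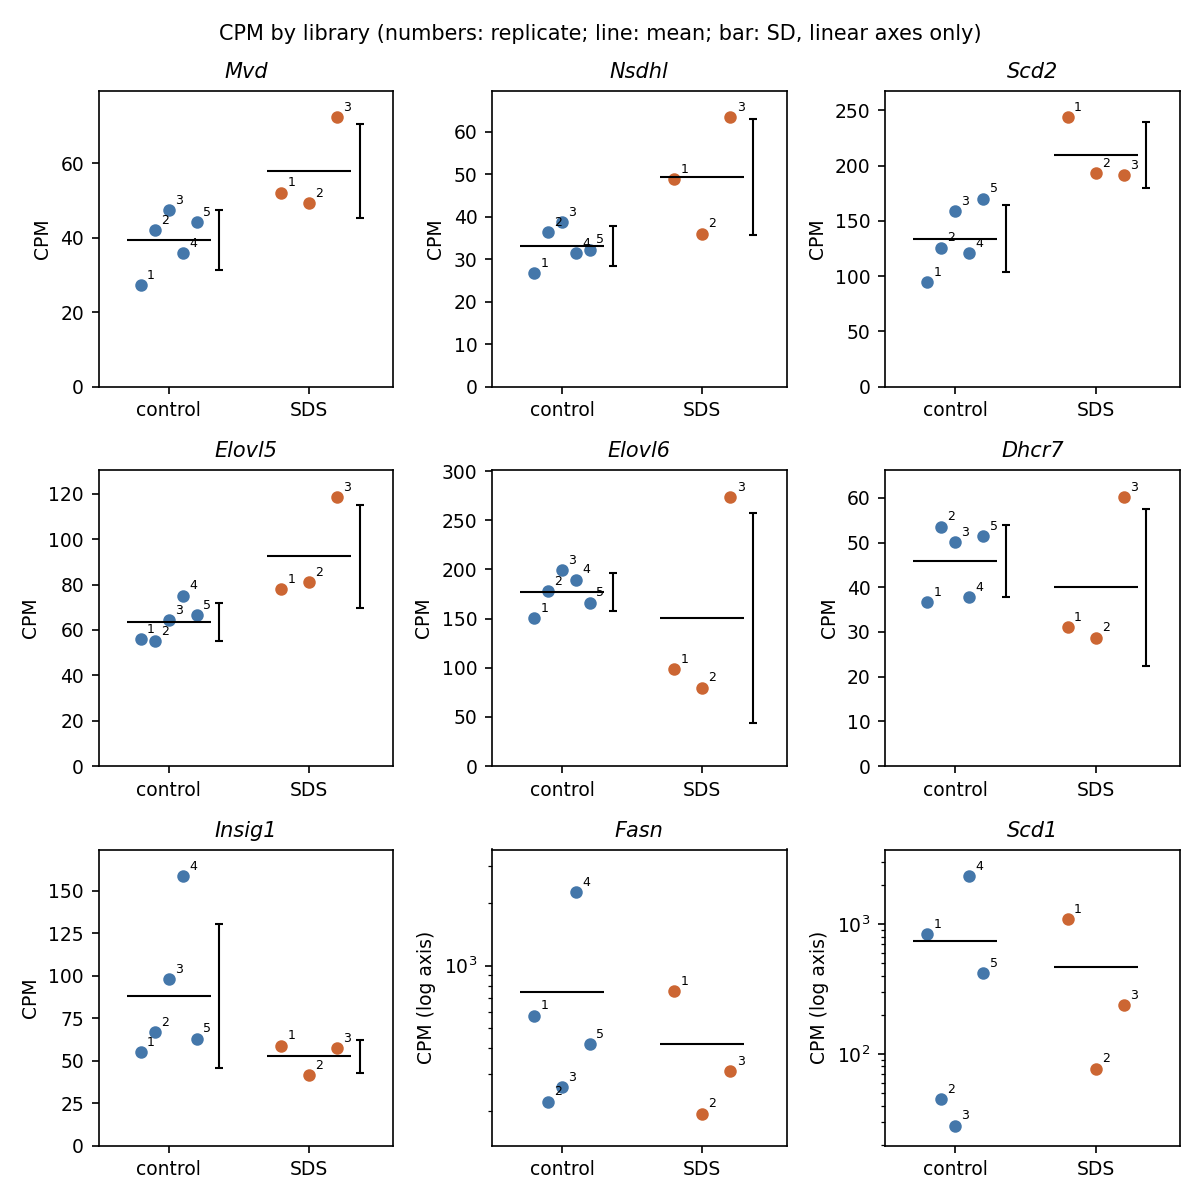
Each panel shows the CPM of 1 gene in every library, numbered by replicate, with the group mean as a line and the SD as a bar on the linear axes; Fasn and Scd1 have log axes. In Dhcr7 and Elovl6 SDS libraries 1 and 2 lie below all controls and SDS library 3 above them, and in Mvd, Scd2 and Elovl5 the groups do not overlap.

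None of the 5 genes of SREBP control and sterol transport was called, and their fold changes went both ways. Insig1 (ENSMUSG00000045294, chromosome 5 from 28071363 to 28078662), which retains the SREBP complex in the endoplasmic reticulum and is itself an SREBP target, had the smallest p. It measured 55.2, 66.7, 97.9, 158 and 63.0 CPM in controls and 58.8, 41.4 and 57.5 CPM in SDS libraries. The value in control 4 was 2.44 times the median of the other controls. The control mean of 88.2 CPM leans on it, as the control median was 66.7 CPM and the SDS mean 52.6 CPM. SDS library 2 was below every control, while the other SDS libraries lay between control 1 and control 5. The log2 fold change of Insig1 was -0.75 ± 0.35 with an adjusted p of 0.30 in edgeR's quasi-likelihood test, and -0.81 without SDS library 3. It was negative in each of the 22 fits run, from -1.05 to -0.42, but these fits share libraries. In SDS library 3, where the sterol enzymes were highest, Insig1 stayed at 57.5 CPM.

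Srebf2 and Scap differed little between the groups, while Srebf1 varied widely between the controls. Srebf2, which encodes SREBP-2, measured 135 to 206 CPM in controls and 172, 180 and 198 CPM in SDS libraries (0.13 ± 0.16, and 0.084 without SDS library 3). Scap, the escort protein, measured 61.1 to 90.4 CPM in controls and 87.9 to 91.0 CPM in SDS libraries (0.16 ± 0.14, and 0.16 without SDS library 3). Srebf1, which encodes SREBP-1, measured 92.3, 76.5, 72.6, 185 and 104 CPM in controls and 107, 82.6 and 89.4 CPM in SDS libraries (-0.19 ± 0.30, and -0.16 without SDS library 3). Control 4 held its highest value. Stard4, a sterol carrier, measured 37.4 to 71.1 CPM in controls and 53.9, 52.5 and 86.0 CPM in SDS libraries (0.36 ± 0.25, and 0.098 without SDS library 3), highest in SDS library 3 as the sterol enzymes were.

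**Figure D4:**
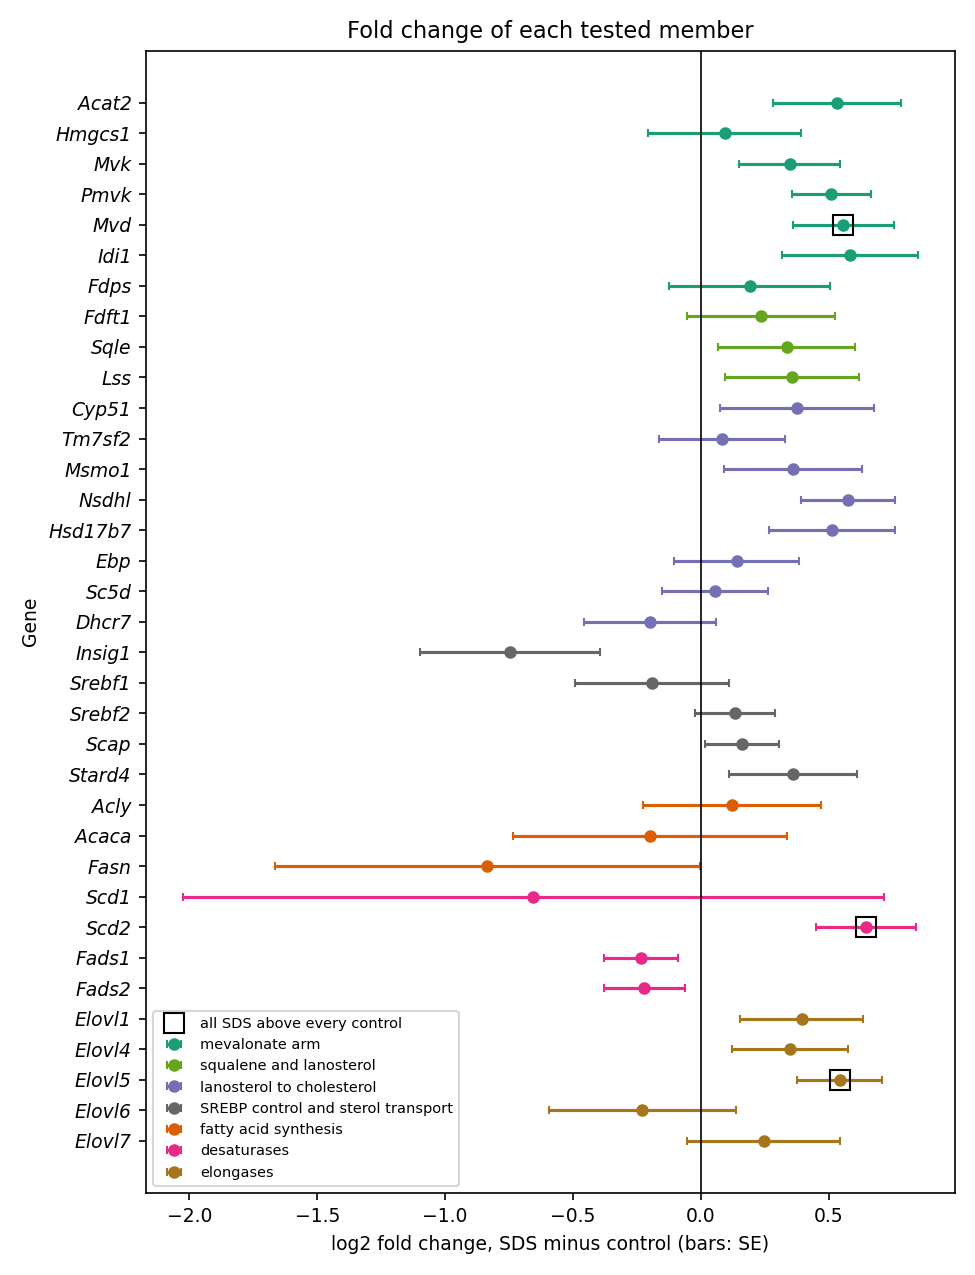
Points are log2 fold changes of the 35 tested members, SDS minus control, with SE bars, coloured by role; squares mark genes whose SDS libraries all lie above every control. Of the 18 sterol enzymes 17 lie right of 0, while Fasn and Scd1 have the widest bars (SE 0.83 and 1.37).

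The fatty acid synthesis genes Acly, Acaca and Fasn had another order of libraries, with control 4 highest for all 3, which it was for 21.8% of all tested genes. Controls 2 and 3 were both below controls 1 and 4 for these 3 genes, against 32.5% of all tested genes. Fasn (ENSMUSG00000025153, chromosome 11 from 120805846 to 120824547), fatty acid synthase, measured 574, 221, 261, 2263 and 420 CPM in controls and 753, 194 and 310 CPM in SDS libraries. The SDS values lay inside the control range except SDS library 2, just below it. For Fasn the log2 fold change was -0.84 ± 0.83 with an adjusted p of 0.64. It was 0.19 without control 4 and -0.66 without SDS library 3. Acaca, acetyl-CoA carboxylase, measured 119, 62.4, 62.3, 297 and 94.8 CPM in controls and 147, 68.2 and 117 CPM in SDS libraries (-0.20 ± 0.54; 0.40 without control 4 and -0.24 without SDS library 3). Acly, ATP citrate lyase, measured 198 to 509 CPM in controls and 340, 212 and 324 CPM in SDS libraries (0.12 ± 0.35, and 0.043 without SDS library 3).

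Adipocyte markers moved with these genes across the libraries. The mean log2 level of the 11 markers was 1.22, -1.85, -3.26, 3.34 and 0.56 in controls 1 to 5 and 1.57, -1.98 and -0.34 in SDS libraries 1 to 3. The mean of the fatty acid synthesis genes was 0.07, -0.75, -0.67, 1.57 and -0.22 in controls and 0.51, -0.74 and -0.05 in SDS libraries. Both lists had control 4 first and SDS library 1 next. None of the markers was at 0 in any library, and their summed level overlapped between the groups, from 116 to 5869 CPM in controls and from 165 to 1670 CPM in SDS libraries. With these markers as a covariate 0 members were called, against 3.17% of all genes, and Acaca and Scd1 changed sign (0.06 and 0.32).

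The 4 desaturases did not behave alike. Scd2 (ENSMUSG00000025203, chromosome 19 from 44293676 to 44306864), a stearoyl-CoA desaturase, had the largest positive fold change of the members. It measured 94.2, 126, 159, 121 and 170 CPM in controls and 244, 193 and 192 CPM in SDS libraries, with no overlap. Its log2 fold change was 0.65 ± 0.20 with an adjusted p of 0.13 in edgeR's quasi-likelihood test, and 0.71 with an adjusted p of 0.11 without SDS library 3. DESeq2 called it, with an adjusted p of 0.0307. It was positive in each of the 22 fits, from 0.50 to 0.75, and SDS library 3 was the lowest SDS library, whereas it was the highest for 26 of the 35 tested members.

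Scd1, the paralog on the same chromosome and a strongly expressed adipocyte gene, measured 839, 44.7, 28.1, 2344 and 418 CPM in controls and 1084, 77.0 and 239 CPM in SDS libraries. The highest control was 83.5 times the lowest, the widest control range of the members. The log2 fold change of Scd1 was -0.65 ± 1.37. It was 0.48 without control 4, -2.22 without SDS library 1 and -0.35 without SDS library 3. Scd1 and Scd2 are closely related in sequence, and how multi-mapping reads were handled is not given in the sources used here, so their division is uncertain. Fads1 and Fads2, which desaturate polyunsaturated fatty acids, had log2 fold changes of -0.23 ± 0.14 (-0.15 without SDS library 3) and -0.22 ± 0.16. Fads2 measured 16.7 to 19.8 CPM in controls, 13.8 CPM in SDS library 1 and 20.3 CPM in SDS library 3, and SDS libraries 1 and 2 were below every control. Without SDS library 3 its log2 fold change was -0.44 ± 0.11 with an adjusted p of 0.056.

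The 5 tested elongases were highest in SDS library 3, in 5 of 5, and 4 of 5 had a positive fold change with a median of 0.35 (0.20 without SDS library 3). Elovl5 (ENSMUSG00000032349, chromosome 9 from 77917364 to 77984519), which elongates polyunsaturated fatty acids, had the smallest p. It measured 56.0, 55.1, 64.3, 75.1 and 66.6 CPM in controls and 78.0, 81.0 and 119 CPM in SDS libraries, with no overlap, although SDS library 1 was close to control 4. Its log2 fold change was 0.54 ± 0.17 with an adjusted p of 0.14, and 0.33 with an adjusted p of 0.19 without SDS library 3. DESeq2 gave an adjusted p of 0.0436.

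Elovl1 and Elovl4, which make the very long chains of skin ceramides, were the most abundant elongases per length in controls, at 269 ± 50.1 and 211 ± 41.8 TPM (SD, n = 5). Their levels came next after Scd1, whose 404 ± 546 TPM (SD, n = 5) spanned both. Elovl1 measured 196 to 384 CPM in controls and 353, 342 and 499 CPM in SDS libraries (0.39 ± 0.24, and 0.20 without SDS library 3). Elovl4 measured 180 to 371 CPM in controls and 312, 302 and 393 CPM in SDS libraries (0.35 ± 0.23, and 0.23 without SDS library 3). Elovl7 measured 73.7 to 177 CPM in controls and 127, 127 and 218 CPM in SDS libraries (0.25 ± 0.30, and -0.053 without SDS library 3). For these 3 genes SDS libraries 1 and 2 lay inside the control range.

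Elovl6 (ENSMUSG00000041220, chromosome 3 from 129532355 to 129638495), which extends palmitate to stearate, had the highest ratio of SDS library 3 to the other SDS libraries among the tested members. Controls measured 150, 178, 200, 190 and 166 CPM, and SDS libraries 98.8, 79.8 and 274 CPM. SDS libraries 1 and 2 were below every control and SDS library 3 was above every control, 3.07 times the mean of the other SDS libraries. Over all 8 libraries the log2 fold change was -0.23 ± 0.37 with an adjusted p of 0.79. Without SDS library 3 Elovl6 was the 1 member called, lower by a log2 fold change of -0.98 ± 0.15 with an adjusted p of 0.0109, in a fit that called 1.94% of all genes lower.

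**Figure D5:**
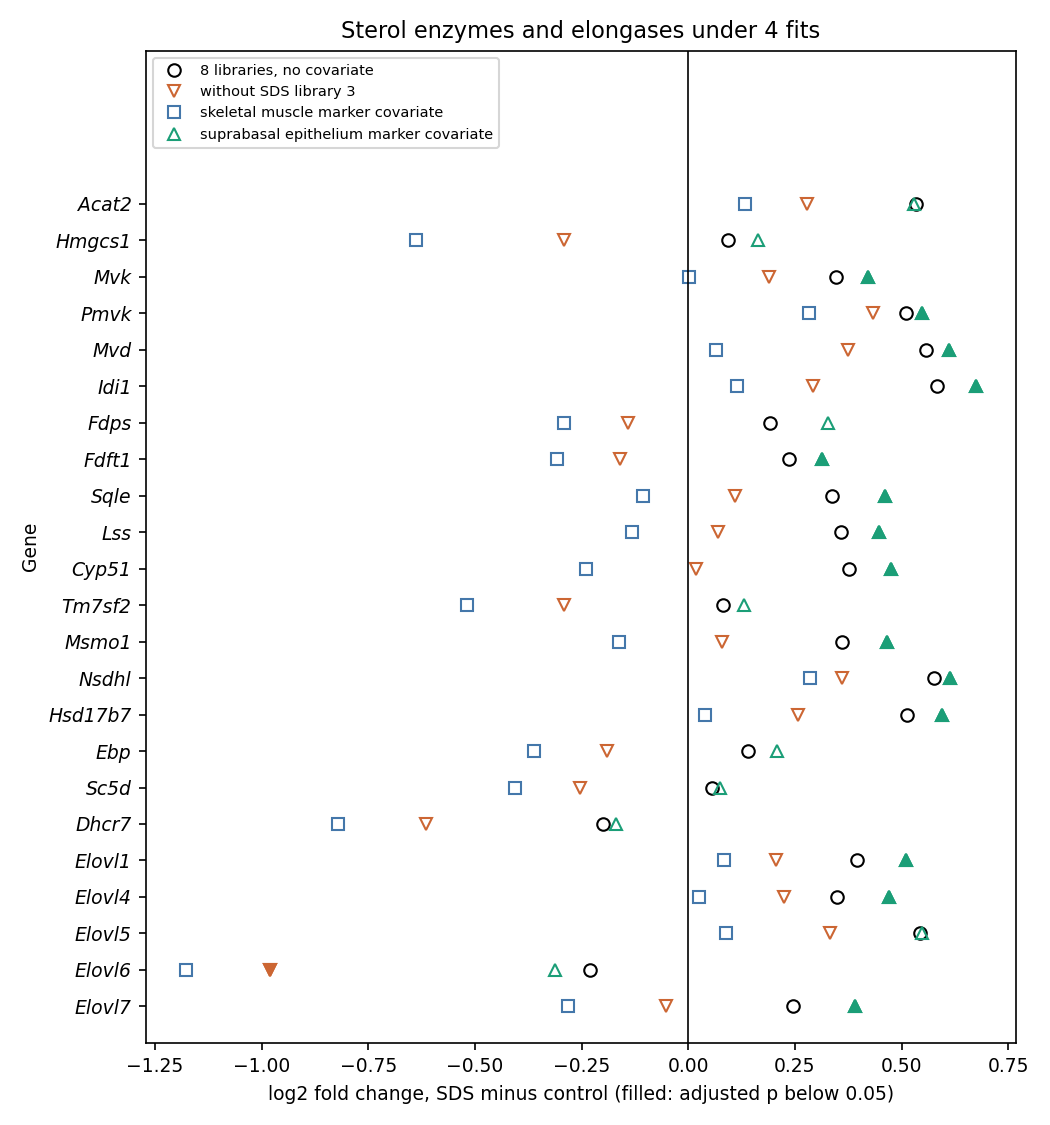
Log2 fold changes of the sterol enzymes and elongases (rows) in 4 fits, with filled symbols at an adjusted p below 0.05. With the skeletal muscle covariate most enzymes lie left of or near 0. That marker mean was lower in every SDS library than in every control, so it cannot be told apart from the group. With the suprabasal covariate, chosen after the data were seen and taken without Krt6a, 11 sterol enzymes and 3 elongases are called higher. That covariate is partly tied to the group. Without SDS library 3 only Elovl6 is called.

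Genes next to these routes were read from 5 further lists. Of 12 other genes of SREBP control 0 were called; the smallest p was that of Rnf145, a ubiquitin ligase of sterol-regulated degradation (log2 fold change 0.38 ± 0.14, adjusted p 0.20). Of 9 genes of the liver X receptors and sterol efflux 1 was called, higher, and of 12 tested genes of sterol uptake, esterification and side branches 1 was called, higher, where 0.623% of all tested genes were called higher. Of 17 tested genes of fatty acid supply and 13 of glycerolipid synthesis 0 were called; their smallest p values were those of Acsl4 (-0.34 ± 0.10, adjusted p 0.12) and Gpat3 (-0.81 ± 0.30, adjusted p 0.19).

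Lpcat3 (ENSMUSG00000004270), a liver X receptor target that puts polyunsaturated chains into membrane phospholipids, rose in the SDS group. It measured 35.6, 37.8, 42.2, 48.7 and 38.3 CPM in controls and 62.1, 64.5 and 60.4 CPM in SDS libraries. The groups did not overlap and SDS library 3 was level with the other SDS libraries. Its log2 fold change was 0.62 ± 0.11 with an adjusted p of 0.0470 in edgeR's quasi-likelihood test, and 0.65 with an adjusted p of 0.0239 without SDS library 3. Over the 22 fits it stayed between 0.51 and 0.71 and was called in 12, with adjusted p from 5.93e-05 to 0.53.

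Cyp7b1 (ENSMUSG00000039519), an oxysterol hydroxylase, also rose. Controls measured 1.57, 0.770, 1.44, 1.83 and 0.992 CPM, and SDS libraries 12.7, 9.80 and 2.59 CPM. SDS library 3 stood between the controls and the other SDS libraries. Macrophage markers (8 genes, 0 called, none at 0) also stood high in SDS libraries 1 and 2, summing to 739 and 1442 CPM there, to 402 CPM in SDS library 3 and to 290 to 455 CPM in controls; their part in this result was not tested. Its log2 fold change was 2.65 ± 0.48 with an adjusted p of 0.0470, and 3.08 with an adjusted p of 0.00207 without SDS library 3. It was called in 11 of 22 fits, with adjusted p from 1.27e-05 to 0.24. Leaving out any library other than SDS library 3 ended the call of Cyp7b1 (adjusted p from 0.063 to 0.19). Leaving out any library other than SDS library 3 or control 4 ended that of Lpcat3 (adjusted p from 0.082 to 0.19).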

How the data were processed

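Poly(A)-selected RNA libraries of whole mouse esophagus, 5 control and 3 SDS, were used as deposited; the labels' extraction text speaks of cell pellets. The authors deposited raw counts, whole numbers for each gene in 1 table per library. Reads were handled with STAR 2.6.1c and Subread on mm10, with bcl2fastq and FastQC also named, per the submitters' processing notes. Annotation release, strandedness and the handling of multi-mapping reads: not given in the sources used here. Symbols were matched to 48970 of 49315 identifiers; coordinates are those of the count tables.

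Counts were fitted with edgeR 4.0.16 in R 4.3.3 (filterByExpr with minimum count 10 and minimum total 15, TMM scaling, robust quasi-likelihood test, two-sided, Benjamini-Hochberg adjustment over 17179 genes); the standard error is the log2 fold change over the square root of F, and the common biological coefficient of variation was 29.3%. DESeq2 1.42.0, limma-voom (limma 3.58.1), other scalings and filters, marker covariates, a replicate block and leaving out each library were alternatives. The method was also run on simulated data, with results not given here. Genes with full statistics are the member of each role with the smallest p, called genes of the neighbouring lists and the smallest p in each list; others were singled out after their values were seen. Members and lists were chosen with earlier results of these data known.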

Additional observations from a re-analysis of the deposited data

Results flagged for a closer look

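Of 36 members examined for a value far from the rest of the 5 controls, 4 were flagged, all for control 4, the control with the most adipocyte marker RNA. Fasn measured 2263 CPM there, with the nearest control at 574 CPM. Acly measured 509 CPM, with the nearest control at 224 CPM. Acaca measured 297 CPM, with the nearest control at 119 CPM. Srebf1 measured 185 CPM, with the nearest control at 104 CPM. Some flags arise by chance at this limit, at a rate not measured here for CPM as skewed as these. These genes share the library, so the flags are not independent of each other. With control 4 left out, 0 members were called, where 0.718% of all tested genes were. The part of adipocyte RNA in these values was not tested.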

How the results depend on the processing

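In the 21 alternative fits, 17 members were called in none and 16 kept the sign of their fold change in all. Relative log expression and upper quartile scaling, TMM without the abundant genes, both filters and robust estimation off called 0 members and changed no sign. DESeq2 called 3 members, all higher (1610 genes called, 859 higher and 751 lower). limma-voom called 122 genes, 67 higher, and gave Acaca 0.026 and Scd1 0.18. The suprabasal covariate, added after the data were seen and taken without Krt6a, called 15 members, all higher, with Scd1 at 0.33. It called 2440 genes (1177 higher, 1263 lower) and is partly tied to the group. The adipocyte covariate called 545 genes (314 higher, 231 lower), with Acaca at 0.061 and Scd1 at 0.32. The Schwann cell covariate called 30 (25 higher, 5 lower), with Sc5d -0.031, Acaca 0.0025, Hmgcs1 -0.044, Tm7sf2 -0.016 and Scd1 0.36. The skeletal muscle covariate called 2 genes (2 higher, 0 lower) and moved the members' median to -0.13, with Ebp -0.36, Fdps -0.29, Cyp51 -0.24, Lss -0.13, Msmo1 -0.16, Fdft1 -0.31, Sc5d -0.41, Elovl7 -0.28, Hmgcs1 -0.64, Sqle -0.11, Srebf2 -0.13, Stard4 -0.18, Tm7sf2 -0.52 and Scd1 0.40. The skeletal muscle marker mean was lower in every SDS library than in every control, so that covariate and the group cannot be told apart. The cause of the shifts under these covariates was not tested.

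With the replicate number as a block, 0 genes were called (0 higher, 0 lower), against 180 without it, with Fdps -0.0024, Sc5d -0.020, Srebf1 0.21, Acaca 0.45, Fasn 0.15, Hmgcs1 -0.029, Tm7sf2 -0.057 and Scd1 1.37. Same-numbered libraries deviated together with correlations of 0.31, -0.006 and 0.31, and SDS library 1 correlated best with control 4 (0.51), so the numbers are not taken as pairs.

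Leaving out each library in turn gave 4 to 1222 called genes, 4 to 879 higher and 0 to 343 lower. Members called ranged from 0 to 1, members lower from 0 to 1, members higher stayed at 0 and the members' median ranged from 0.043 to 0.39. Among the members that changed sign, the ranges were -0.29 to 0.27 for Hmgcs1, -0.14 to 0.39 for Fdps, -0.16 to 0.44 for Fdft1, -0.25 to 0.23 for Sc5d, -0.29 to 0.26 for Tm7sf2, -0.19 to 0.31 for Ebp, -0.053 to 0.38 for Elovl7, -0.98 to 0.077 for Elovl6, -0.30 to 0.11 for Srebf1, -0.0011 to 0.50 for Acly, -0.45 to 0.40 for Acaca, -1.57 to 0.19 for Fasn and -2.22 to 0.48 for Scd1. Depth was not varied. Elovl3, with at most 6 reads in any library, stayed out of the main test.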

Other observations

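The glycerolipid synthesis genes, which join fatty acids to glycerol, had negative fold changes in 12 of 13 tested genes, with a median log2 fold change of -0.36 and 0 called. Control 4 was the highest library for 11 of the 13, as it was for 11 of the 11 adipocyte markers and for 21.8% of all tested genes. Gpat3 measured 13.6, 10.6, 15.4, 26.6 and 15.4 CPM in controls and 11.7, 7.41 and 8.84 CPM in SDS libraries. Its groups overlapped in SDS library 1, which lay above control 2.

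Elsewhere in the neighbouring lists, Smpdl3a, a liver X receptor target, measured 34.97 to 46.0 CPM in controls and 52.8, 52.4 and 47.2 CPM in SDS libraries, with an adjusted p of 0.11 in edgeR's quasi-likelihood test. Acsl4, which activates polyunsaturated fatty acids, measured 29.0 to 35.9 CPM in controls and 24.5 to 26.3 CPM in SDS libraries, with no overlap. Of the 17 tested genes of its list, 2 lay lower without overlap (Acsl4 and Mlycd, 11.8%), against 6.89% of all tested genes. Acsl5 was the 1 gene higher without overlap (5.88%), against 6.49% of all. Soat1, which esterifies cholesterol, measured 4.72 to 8.65 CPM in controls and 12.1, 17.9 and 4.76 CPM in SDS libraries, with SDS library 3 among the controls. Macrophage markers had positive fold changes in 8 of 8 genes, 0 of them called, and their mean log2 level was 0.96, 1.88 and -0.23 in SDS libraries 1 to 3; their part in the Soat1 values was not tested. Smpdl3a, Acsl4, Acsl5, Mlycd, Soat1 and Tyms were named after their values were seen. Proliferation markers had positive fold changes in 9 of 9 tested genes, against 49.3% of all tested genes, and 1 was called higher (Tyms, a thymidylate synthase), against 0.623% of all.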
